A study of Homo sapiens with 12 samples.

Results

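The genes described here are 10 transcriptional targets of the antioxidant factor NRF2, namely NQO1, TXNRD1, SRXN1, PIR, GCLM, GCLC, HMOX1, FTH1, FTL and SLC7A11. They were taken by symbol from a deposited table of 23398 gene entries, and all 10 had an entry and passed the filter on low counts. The cells were purchased human brain microvascular endothelial cells, which wall off brain tissue from blood in its smallest vessels, and their messenger RNA was sequenced. The 4 groups were an siRNA against the glucose transporter Glut1 (siGlut1) in control glucose, non-silencing siRNA in control glucose, siGlut1 in high glucose and non-silencing siRNA in high glucose. All cells were transfected, for 48 h, so no group was free of siRNA, and the labels give no glucose concentration. Each group had 3 replicate numbers. Replicate 2 of the group with non-silencing siRNA and high glucose was left out because its column equalled the mean of replicates 1 and 3 in 23397 of 23398 entries, which leaves 11 libraries and n = 2 in that group. Values of single libraries are listed by replicate number, 1, 2 and 3, or 1 and 3 in the group of n = 2, and a library is named by siRNA, medium and number, as in siGlut1 control 1.

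NRF2, encoded by NFE2L2, is held at a low level by KEAP1, an adaptor that presents it for ubiquitination. Electrophiles and oxidants modify KEAP1, NRF2 then accumulates, pairs with a small MAF protein and binds antioxidant response elements in its targets, while BACH1 can occupy the same elements and repress them. The targets make NADPH-dependent reductases, glutathione, and enzymes that handle heme and iron, and endothelial cells are known to use this programme against oxidants carried by the blood.

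Deposited counts totalled 40135082 to 90536476 per library, and since no label says whether a replicate was a culture of its own, the p-values below cover the spread among these libraries alone, which may be technical. SLC2A1, the gene of Glut1, averaged 7.96 ± 1.49 CPM (counts-per-million, with library totals scaled by TMM) with siGlut1 and 23.9 ± 1.74 CPM with non-silencing siRNA in control glucose (SD, n = 3 each), and 6.88 ± 0.442 (n = 3) and 20.9 ± 0.394 CPM (n = 2) in high glucose. All 12 endothelial markers were measured, with a summed level of 1446 to 1916 RPKM (the deposited read density, which is corrected for gene length) over the 11 libraries, and PECAM1 and CDH5 were at 168 RPKM or more. AQP4 of astrocytes, CDH1 and KRT5 of epithelium and PDPN of lymphatic endothelium were at 0 in every library, and PTPRC of leukocytes reached at most 0.0184 RPKM. Other genes of those lists were present, among them CD68 (19.1 to 37.2 RPKM), KRT18 (141 to 179 RPKM), KRT19 (21.4 to 72.2 RPKM), KRT8 (3.85 to 7.24 RPKM) and LYVE1 (37.4 to 75.1 RPKM). The lymphatic markers FLT4 (3.47 to 5.98 RPKM) and PROX1 (1.2 to 2.6 RPKM) were present too. So were SYT1 (5.55 to 8.24 RPKM) and MBP (1.07 to 1.41 RPKM) of the neuron and oligodendrocyte list and COL1A2 (0.776 to 6.44 RPKM) of the fibroblast list. In control glucose, replicate 3 of each siRNA lay farthest from the rest of its group, with a root mean square distance on log2 CPM of 0.252 (siGlut1) and 0.307 (non-silencing), against 0.134 to 0.229 for the other libraries, and results that depend on them are given without them. In RNA from whole cultures, fewer cells of a type and less RNA per cell cannot be told apart.

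On the length-corrected scale the 10 genes spanned levels from ferritin chains at the top to the catalytic subunit of glutathione synthesis at the bottom. FTL, the ferritin light chain, averaged 2845 RPKM over the 11 libraries and ranked 4 among the 14334 genes tested. FTH1, the ferritin heavy chain, averaged 1606 RPKM and ranked 24. TXNRD1 followed with 165 RPKM, NQO1 with 104, HMOX1 with 99.1, SRXN1 with 33.4, PIR with 31.6, SLC7A11 with 18.2, GCLM with 17.4 and GCLC with 7.30 RPKM. The ranges over libraries did not overlap between FTL and FTH1, between FTH1 and TXNRD1, between HMOX1 and SRXN1 or between GCLM and GCLC. Neighbours that changed places between libraries were NQO1 and HMOX1 (NQO1 higher in 7 of 11 libraries), SRXN1 and PIR (SRXN1 higher in 5 of 11), PIR and SLC7A11 (10 of 11) and SLC7A11 and GCLM (7 of 11). Both ferritin genes have pseudogene-like entries in the table, FTH1P3 and FTLP10, with which reads may be shared, so their values are uncertain.

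**Figure D1:**
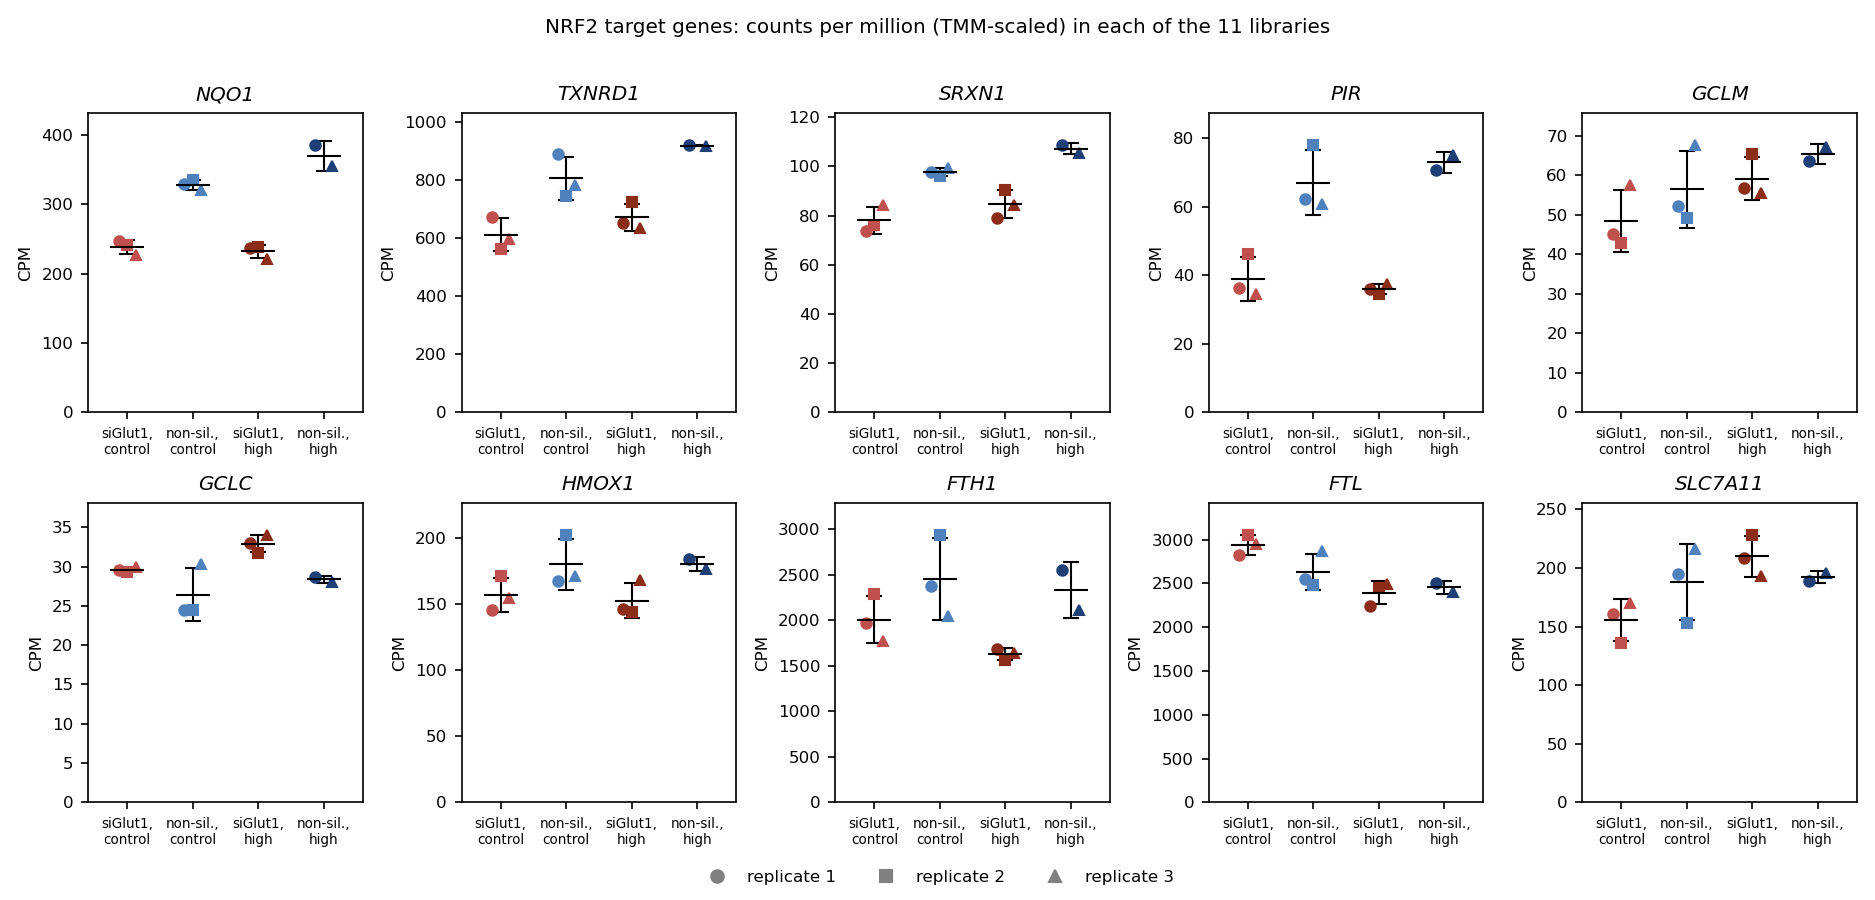
Counts-per-million (CPM, vertical axes, starting at 0) of the 10 NRF2 target genes in each of the 11 libraries, with siGlut1 left of non-silencing siRNA in control glucose and then in high glucose. Points are libraries, with a marker shape for each replicate number, and black bars are the mean ± SD (n = 3, and n = 2 where replicate 2 was left out). For NQO1, TXNRD1, SRXN1 and PIR every siGlut1 library lies below every non-silencing library of the same medium.

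Promoter sequences are shown because NRF2 acts through a short element, and they let the genes that fell be set beside those that were not called. RefSeq windows (GRCh38.p14, 250 bases before to 50 after the gene's start) matched 7 of the 10 genes, NQO1, TXNRD1, SRXN1, PIR, GCLM, GCLC and FTL, with 2 windows for TXNRD1. The core searched was TGACNNNGC on either strand, read as GCNNNGTCA on the reverse. It was present in 4687 of all 35116 windows (13.35%), and in windows of TXNRD1, PIR and GCLM, but not in those of NQO1, SRXN1, GCLC and FTL, and a match or its absence is a description of these letters. Sequence outside these windows was not searched, so no gene is shown to lack an element. The windows with a match are printed 5′ to 3′ on the gene's strand, with the match in capitals. TXNRD1 window 1 is chr12:104215529-104215828 (plus strand), TXNRD1 window 2 is chr12:104286782-104287081 (plus), PIR is chrX:15493284-15493583 (minus) and GCLM is chr1:93909381-93909680 (minus).
TXNRD1 window 1: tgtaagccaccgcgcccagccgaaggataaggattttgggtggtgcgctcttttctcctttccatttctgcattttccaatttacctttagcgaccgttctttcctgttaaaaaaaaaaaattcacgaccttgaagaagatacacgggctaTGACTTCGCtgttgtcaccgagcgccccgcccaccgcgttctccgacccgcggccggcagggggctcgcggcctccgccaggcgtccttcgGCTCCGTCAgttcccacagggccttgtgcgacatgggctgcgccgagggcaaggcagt
TXNRD1 window 2: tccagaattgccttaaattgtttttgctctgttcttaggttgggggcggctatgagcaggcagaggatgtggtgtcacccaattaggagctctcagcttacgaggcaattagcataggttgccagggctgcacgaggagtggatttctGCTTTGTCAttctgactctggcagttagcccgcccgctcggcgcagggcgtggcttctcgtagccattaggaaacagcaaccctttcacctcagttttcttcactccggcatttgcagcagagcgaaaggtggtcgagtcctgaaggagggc
PIR: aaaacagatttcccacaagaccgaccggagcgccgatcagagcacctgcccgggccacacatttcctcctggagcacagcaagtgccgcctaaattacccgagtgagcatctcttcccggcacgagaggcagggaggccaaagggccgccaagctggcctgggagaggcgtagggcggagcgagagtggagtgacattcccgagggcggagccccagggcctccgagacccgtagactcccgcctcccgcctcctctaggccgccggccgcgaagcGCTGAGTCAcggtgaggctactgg
GCLM: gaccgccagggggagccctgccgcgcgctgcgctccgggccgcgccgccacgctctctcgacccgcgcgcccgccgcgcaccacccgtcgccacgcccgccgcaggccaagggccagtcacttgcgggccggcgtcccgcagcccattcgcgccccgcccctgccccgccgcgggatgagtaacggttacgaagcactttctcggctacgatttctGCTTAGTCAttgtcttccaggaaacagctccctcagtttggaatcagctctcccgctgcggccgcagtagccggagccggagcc
The matches began 99 and 8 bases before the start in TXNRD1 window 1, 102 before it in window 2 and 34 before it in GCLM, and 26 after it in PIR. Of these 3 genes, TXNRD1 and PIR fell with siGlut1 and GCLM was not called, and of the 4 genes without the core in the window, NQO1 and SRXN1 fell.

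In control glucose, 4 of the 10 genes fell with siGlut1 relative to non-silencing siRNA and 0 rose. They were NQO1, PIR, TXNRD1 and SRXN1, a quinone reductase, a nuclear iron-binding protein and both enzymes of the set that serve the thioredoxin and peroxiredoxin system. Over all 14334 genes tested, 2.96% were called in either direction and 1.26% were called lower. A gene was called at an adjusted p under 0.05 (edgeR's quasi-likelihood test, Benjamini-Hochberg adjustment over all genes tested), and every adjusted p below is from that test unless another is named. The median log2 fold change of the 10 genes was -0.28, against -0.0066 over all genes tested, and 8 of the 10 were negative. In high glucose the same 4 genes fell and 0 rose, where 4.11% of all genes were called and 1.65% were called lower. The median of the 10 was -0.29 there, against -0.00050 over all genes. Both comparisons have their own control libraries, and each uses the spread of all 4 groups.

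NQO1 (chromosome 16, 69743304 to 69760533, hg19), the cytosolic quinone reductase that often serves as a readout of NRF2, had 247, 241 and 227 CPM with siGlut1, against 328, 335 and 320 CPM with non-silencing siRNA in control glucose. For NQO1 in high glucose the values were 237, 238 and 221 CPM with siGlut1, against 385 and 355 CPM with non-silencing siRNA. The groups did not overlap in either medium, and all 6 siGlut1 libraries lay below all 5 non-silencing libraries. For NQO1 the log2 fold change was -0.46 ± 0.06 SE in control glucose (adjusted p = 0.00636) and -0.67 ± 0.07 SE in high glucose (adjusted p = 0.00164). Averaged over both media it was -0.57 ± 0.05 SE (adjusted p = 8.65e-05), which is 0.675 of the non-silencing level. NQO1 was past the threshold in all 22, 21 and 20 alternatives run for these 3 comparisons.

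PIR (chromosome X, 15402924 to 15511711), which encodes pirin, an iron-binding nuclear protein, gave the largest fold change of the 10. It had 36.3, 46.3 and 34.4 CPM with siGlut1, against 62.1, 78.0 and 60.8 CPM with non-silencing siRNA in control glucose. For PIR in high glucose the values were 36.1, 34.5 and 37.5 CPM with siGlut1, against 70.6 and 75.1 CPM with non-silencing siRNA. Again no siGlut1 library reached a non-silencing one, and in both media the siGlut1 libraries lay at about the same level. For PIR the log2 fold change was -0.78 ± 0.12 SE in control glucose (adjusted p = 0.00969) and -1.02 ± 0.13 SE in high glucose (adjusted p = 0.00413), a fold of 0.583 and 0.494. The call in high glucose ended without non-silencing high 3 (-0.97, adjusted p = 0.0724). The PIR entry overlaps PIR-FIGF, with which reads could be shared.

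TXNRD1 (chromosome 12, 104609559 to 104744062), the cytosolic reductase that keeps thioredoxin reduced, had 674, 563 and 597 CPM with siGlut1, against 891, 745 and 784 CPM with non-silencing siRNA in control glucose. For TXNRD1 in high glucose the values were 653, 726 and 637 CPM with siGlut1, against 922 and 919 CPM with non-silencing siRNA. The groups did not overlap in either medium, but the highest siGlut1 library of high glucose, replicate 2, came close to the lowest non-silencing library of control glucose. For TXNRD1 the log2 fold change was -0.40 ± 0.09 SE (adjusted p = 0.0375) in control glucose, -0.45 ± 0.10 SE (adjusted p = 0.0294) in high glucose and -0.43 ± 0.07 SE (adjusted p = 0.00220) averaged over both. The entry overlaps EID3.

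SRXN1 (chromosome 20, 627268 to 633890), sulfiredoxin, restores peroxiredoxins whose active cysteine has been overoxidised. It had 73.8, 76.1 and 84.4 CPM with siGlut1, against 97.8, 96 and 99.5 CPM with non-silencing siRNA in control glucose. For SRXN1 in high glucose the values were 79.0, 90.6 and 84.4 CPM with siGlut1, against 109 and 106 CPM with non-silencing siRNA. All 6 siGlut1 libraries lay below all 5 non-silencing libraries, as for NQO1, PIR and TXNRD1. For SRXN1 the log2 fold change was -0.32 ± 0.07 SE in control glucose (adjusted p = 0.0372) and -0.34 ± 0.08 SE in high glucose (adjusted p = 0.0389), and -0.33 ± 0.05 SE averaged over both (adjusted p = 0.00262).

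The calls of TXNRD1 and SRXN1 within 1 medium lay near the threshold and ended when any of several libraries was left out, while the fold changes kept their sign. In control glucose the TXNRD1 call ended without siGlut1 control 2 or 3, non-silencing control 1 or 3, siGlut1 high 1 or 3 or non-silencing high 1 or 3, with log2 fold changes of -0.42 to -0.32 and adjusted p-values of 0.0535 to 0.119, and also without both libraries numbered 3 of that medium (adjusted p = 0.0824). The SRXN1 call there ended without siGlut1 control 1 or 2, any non-silencing control library, siGlut1 high 3 or non-silencing high 1 or 3, with -0.34 to -0.28 and adjusted p-values of 0.0643 to 0.134. In high glucose the TXNRD1 call ended without any 1 of the 5 libraries compared, with -0.51 to -0.42 and adjusted p-values of 0.0557 to 0.185. The SRXN1 call there ended without any of those 5, siGlut1 control 1 or 2 or non-silencing control 1, with -0.39 to -0.29 and adjusted p-values of 0.0518 to 0.227, and also with no filter on low counts (adjusted p = 0.0512). Averaged over both media, the calls of NQO1, PIR, TXNRD1 and SRXN1 held in all 20 alternatives.

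Averaged over both media, 5 of the 10 genes fell and 0 rose, where 14.4% of all genes were called and 6.49% were called lower. The fifth was FTH1. Of all genes tested, 6.20% had every siGlut1 library below every non-silencing library within both media, and 4 of the 10 did, namely NQO1, PIR, TXNRD1 and SRXN1. The count in control glucose moved with the design of the fit. Same-numbered libraries of the 2 control-glucose groups deviated together for numbers 2 and 3 and less clearly for number 1. With the replicate block and only these 2 groups in the fit, 8 of the 10 were called, all lower, among 1892 of 13838 genes. GCLM (adjusted p = 0.0450), HMOX1 (0.0474), FTH1 (0.00567) and SLC7A11 (0.0151) were the additions, and with only these 2 groups and no block NQO1 alone of the 10 was called, among 70 of 13838 genes.

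**Figure D2:**
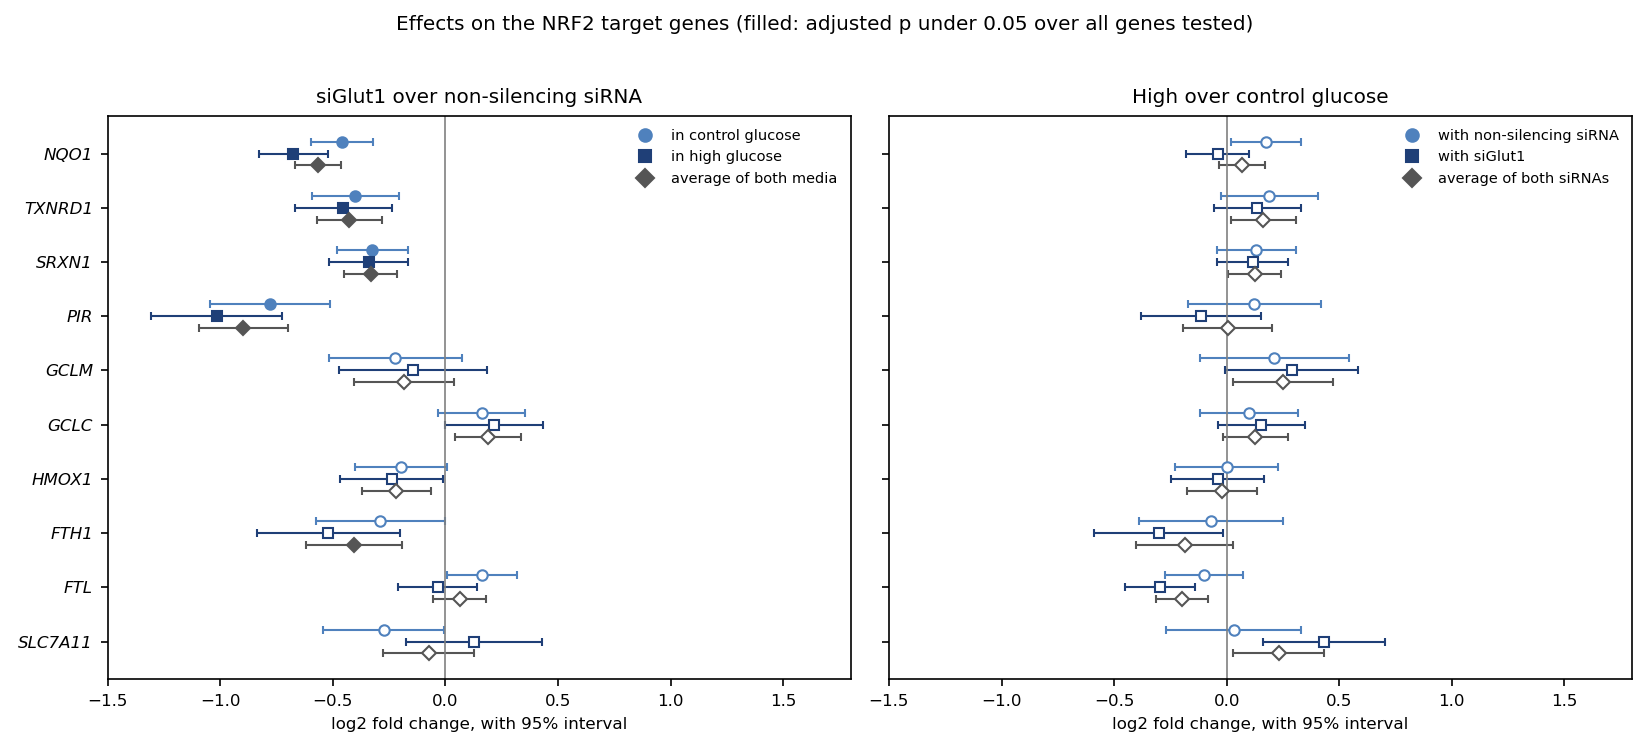
Log2 fold changes (horizontal axes) of the 10 genes (rows) with 95% intervals, for siGlut1 over non-silencing siRNA on the left and high over control glucose on the right. Filled symbols passed an adjusted p of 0.05 over all genes tested. On the left NQO1, TXNRD1, SRXN1 and PIR are filled in all 3 comparisons and FTH1 in the average, and no symbol on the right is filled.

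The glutathione genes of the set were not called in either medium. GCLC (chromosome 6, 53362140 to 53409927) encodes the catalytic subunit of glutamate-cysteine ligase, which makes the first bond of glutathione, and GCLM (chromosome 1, 94352590 to 94375012) its modifier subunit. GCLC had 29.6, 29.3 and 30.0 CPM with siGlut1, against 24.4, 24.5 and 30.4 CPM with non-silencing siRNA in control glucose, and replicate 3 of the non-silencing group made the groups overlap. For GCLC in high glucose the values were 33.0, 31.8 and 34.0 CPM with siGlut1, against 28.7 and 28.1 CPM with non-silencing siRNA, with no overlap. Its log2 fold change averaged over both media was 0.19 (95% interval 0.043 to 0.33, adjusted p = 0.0809), and it was called, higher, without non-silencing control 3 (0.25, adjusted p = 0.00658) and without both control-glucose libraries numbered 3 (0.0104). It was also called with all 12 columns (0.0319), but the left-out replicate 2 is a mean and adds no independent library. GCLM had 45.0, 42.8 and 57.5 CPM with siGlut1, against 52.3, 49.3 and 67.7 CPM with non-silencing siRNA in control glucose. The groups overlapped, but within each replicate number the siGlut1 library was the lower one, as also for SLC7A11, HMOX1 and FTH1 in control glucose. GCLM had 56.8, 65.3 and 55.4 CPM with siGlut1, against 63.6 and 67.2 CPM with non-silencing siRNA in high glucose, and these groups overlapped too. Its averaged log2 fold change was -0.18 (95% interval -0.40 to 0.038, adjusted p = 0.256).

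SLC7A11 (chromosome 4, 139085248 to 139163503), the transport subunit of the antiporter that brings in cystine for glutathione, had opposite signs in the 2 media. Its entry overlaps LOC641364. It had 161, 136 and 170.0 CPM with siGlut1, against 195, 153 and 216 CPM with non-silencing siRNA in control glucose. For SLC7A11 in high glucose the values were 209, 228 and 193 CPM with siGlut1, against 189 and 196 CPM with non-silencing siRNA. The groups overlapped in both media, and the lowest levels of all were in siGlut1 control 2 and non-silencing control 2. For SLC7A11 the log2 fold change was -0.27 (95% interval -0.54 to -0.0040, adjusted p = 0.279) in control glucose and 0.13 (95% interval -0.18 to 0.43, adjusted p = 0.663) in high glucose. The difference between both, tested as the interaction of siRNA and glucose, was 0.40 ± 0.19 SE (unadjusted p = 0.0524, adjusted p = 0.999).

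Of the heme and iron genes, FTH1 fell with siGlut1 in the average of both media and FTL and HMOX1 were not called. HMOX1 (chromosome 22, 35777060 to 35790207), the inducible heme oxygenase, had 146, 171 and 155 CPM with siGlut1, against 167, 202 and 171 CPM with non-silencing siRNA in control glucose. For HMOX1 in high glucose the values were 146, 144 and 168 CPM with siGlut1, against 184 and 177 CPM with non-silencing siRNA. The control-glucose groups overlapped through siGlut1 control 2, and those in high glucose did not. Its averaged log2 fold change was -0.22 (95% interval -0.37 to -0.065, adjusted p = 0.0594). HMOX1 was called lower in 6 of 20 alternatives of the average. These were the replicate block (-0.24, adjusted p = 0.0403), DESeq2 (its adjusted p = 0.0281), all 12 columns (0.0275), and siGlut1 control 2, non-silencing control 3 or siGlut1 high 3 left out (0.0445 to 0.0473). The 12 columns hold no independent library beyond the 11.

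FTH1 (chromosome 11, 61731757 to 61735132), which oxidises iron for storage, had 1970.0, 2288 and 1769 CPM with siGlut1, against 2375, 2938 and 2049 CPM with non-silencing siRNA in control glucose. For FTH1 in high glucose the values were 1689, 1565 and 1637 CPM with siGlut1, against 2556 and 2116 CPM with non-silencing siRNA. The groups overlapped in control glucose and did not in high glucose, where the 3 siGlut1 libraries were the lowest of the 11. For FTH1 the log2 fold change was -0.29 ± 0.13 SE (adjusted p = 0.281) in control glucose, -0.52 ± 0.14 SE (adjusted p = 0.0692) in high glucose and -0.40 ± 0.10 SE (adjusted p = 0.0184) averaged over both. The averaged call ended without non-silencing high 1 (-0.33, adjusted p = 0.0980), and the value in high glucose was past the threshold in 7 of 21 alternatives. These were the replicate block (-0.58, adjusted p = 0.0222), DESeq2 (its adjusted p = 0.0166), only the 2 groups compared (0.0137), all 12 columns (0.0224), both control-glucose libraries numbered 3 left out (0.0148), and non-silencing control 2 (0.0404) or 3 (0.0293) left out. Here too the 12 columns add no independent library. The entry overlaps BEST1.

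FTL (chromosome 19, 49468566 to 49470136), the light chain, had 2826, 3053 and 2949 CPM with siGlut1, against 2546, 2478 and 2866 CPM with non-silencing siRNA in control glucose. For FTL in high glucose the values were 2248, 2446 and 2496 CPM with siGlut1, against 2507 and 2403 CPM with non-silencing siRNA. The groups overlapped in both media, in control glucose through non-silencing control 3, which was above the lowest siGlut1 library, and in high glucose because siGlut1 2 and 3 lay between the non-silencing libraries. For FTL the log2 fold change was 0.16 (95% interval 0.0067 to 0.32, adjusted p = 0.264) in control glucose and -0.035 (95% interval -0.21 to 0.14, adjusted p = 0.852) in high glucose, so that the 2 ferritin chains did not share a sign in control glucose. The FTL entry overlaps 10 entries of the SNAR-A family.

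Groups that did not overlap in high glucose numbered 7 of the 10 genes, 6 lower with siGlut1 (NQO1, TXNRD1, SRXN1, PIR, HMOX1 and FTH1) and 1 higher (GCLC). Of all genes tested, 21.9% were lower and 22.5% higher without overlap there, with 3 libraries against 2. In control glucose 4 of the 10 did not overlap, all lower, against 9.59% of all genes. The interaction of siRNA and glucose was called for 0 of the 10 genes by edgeR and for 0 by DESeq2, and for 0% of all genes tested by edgeR. At an unadjusted p under 0.05, 1 of the 10 remained, NQO1 (-0.22 ± 0.09 SE, unadjusted p = 0.0425, adjusted p = 0.999), as did 394 of all genes (2.75%). Larger fold changes in high than in control glucose are therefore not shown to differ between media.

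Markers of other cells were set beside the siRNA comparisons. The summed level of 10 pericyte and smooth muscle markers was 201 to 212 RPKM with siGlut1 and 244 to 292 RPKM with non-silencing siRNA in control glucose, and 224 to 267 and 316 to 322 RPKM in high glucose. That sum was almost wholly RGS5 (190.0 to 312 RPKM), the 1 of 6 tested markers that was called, lower, while PDGFRB, CSPG4 and KCNJ8, which define pericytes, reached at most 0.0602, 0.0231 and 0.0198 RPKM. The 6 epithelial markers summed to 168 to 195 RPKM with siGlut1 and 213 to 219.9 RPKM with non-silencing siRNA in high glucose, and to 175 to 238 and 187 to 247 RPKM in control glucose, with 0 of 4 tested called in the average and CDH1 and KRT5 at 0. The 4 lymphatic markers summed to 70.9 to 82.5 RPKM with siGlut1 and 52.0 to 72.3 RPKM with non-silencing siRNA in control glucose, and to 46.5 to 78.4 and 43.5 to 50.4 RPKM in high glucose, with 1 called higher in the average and PDPN at 0. Of 12 endothelial markers 2 were called higher with siGlut1 and 0 lower in the average, and the summed levels overlapped in both media. Over all genes, 7.93% were called higher and 6.49% lower in the average. The part of these markers in the NRF2 target genes' values was not tested.

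**Figure D3:**
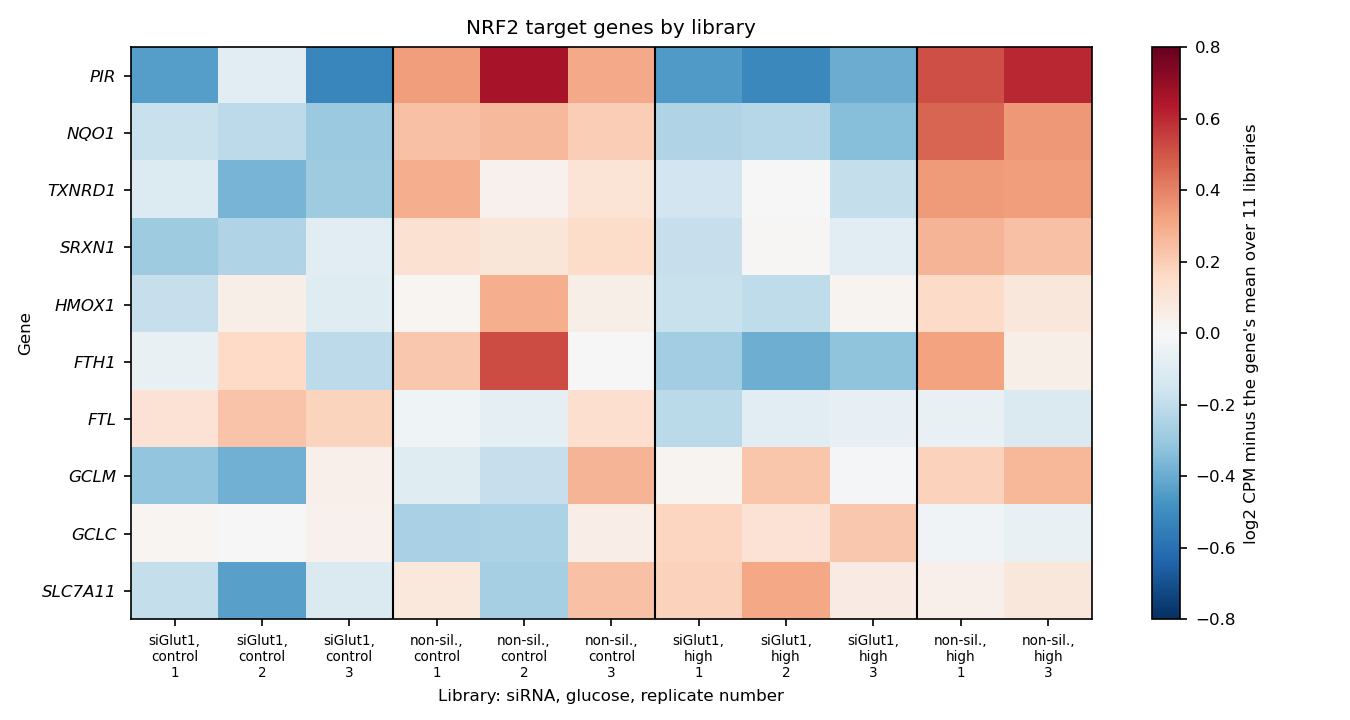
Deviation of log2 CPM from each gene's mean over the 11 libraries (colour, blue below and red above), with genes as rows and libraries as columns, siGlut1 left of non-silencing siRNA in each medium and black lines between groups. PIR, NQO1, TXNRD1 and SRXN1 separate the siRNAs in every library, while GCLM, GCLC and SLC7A11 do not.

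High glucose changed none of the 10 genes past the threshold in the edgeR fit, with either siRNA or in their average. The glucose comparisons use the same libraries as the siRNA comparisons, so the values of both are only set side by side. With non-silencing siRNA, 0 of the 10 were called by edgeR and 0 by DESeq2, where edgeR called 0% of all genes and 774 of them (5.4%) had an unadjusted p under 0.05. Among the 10, NQO1 alone had an unadjusted p under 0.05, with 385 and 355 CPM in high glucose 1 and 3, against 328, 335 and 320 CPM in control glucose 1, 2 and 3 (0.18, 95% interval 0.021 to 0.33, unadjusted p = 0.0290, adjusted p = 0.916). TXNRD1 (0.19, 95% interval -0.026 to 0.41) and SRXN1 (0.13, 95% interval -0.044 to 0.31) were the other genes whose high-glucose libraries all lay above the control ones, a count of 3 of 10 against 8.61% of all genes. HMOX1 averaged 180.4 CPM in both high and control glucose with this siRNA (95% interval of the log2 fold change -0.23 to 0.23).

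With siGlut1, edgeR called 0 of the 10 genes between high and control glucose and 0.014% of all genes, and 3 of the 10 had an unadjusted p under 0.05, against 15.2% of all genes. These were SLC7A11 (0.43 ± 0.12 SE, adjusted p = 0.177), FTL (-0.30 ± 0.07 SE, adjusted p = 0.145) and FTH1 (-0.30 ± 0.13 SE, adjusted p = 0.308). The 3 high-glucose libraries of SLC7A11 had 209, 228 and 193 CPM, against 161, 136 and 170.0 CPM in control glucose, and those of FTL lay below all control ones. Without overlap were 2 genes higher, SLC7A11 and GCLC, and 2 lower, FTL and FTH1, against 10.8% and 11.7% of all genes. DESeq2 called SLC7A11 and FTL, where it called 3.01% of all genes. Without both control-glucose libraries numbered 3, edgeR called SLC7A11 and GCLM higher and FTL lower, where 5.16% of all genes were called.

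Averaged over both siRNAs, edgeR called 0 of the 10 genes between high and control glucose, where 0.412% of all genes were called, and 5 of the 10 had an unadjusted p under 0.05, against 16.9% of all genes. DESeq2 called 1, FTL, where it called 3.77% of all genes. The lowest adjusted p was that of FTL (-0.20 ± 0.05 SE, adjusted p = 0.131). This comparison changed with the libraries numbered 3. Without both of them 6 of the 10 were called, SRXN1, GCLM, GCLC and SLC7A11 higher and FTH1 and FTL lower, but 2583 of 14236 genes were then called in all, against 59 of 14334 with them. Without non-silencing control 3 alone, GCLM and GCLC were called higher. The share of all genes called in that fit is not given here, so these calls are not weighed against it.

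Among the regulators, NFE2L2, which encodes NRF2, was not called with siGlut1, and BACH1, the repressor at the same elements, was the 1 gene called higher. NFE2L2 had 94.1, 88.5 and 94.4 CPM with siGlut1, against 90.8, 95.8 and 104 CPM with non-silencing siRNA in control glucose, and 99.8, 97.3 and 99.97 CPM with siGlut1, against 107 and 103 CPM with non-silencing siRNA in high glucose. Its averaged log2 fold change was -0.078 (95% interval -0.19 to 0.031, adjusted p = 0.327), and that of KEAP1 was 0.026 (95% interval -0.12 to 0.18, adjusted p = 0.834). BACH1 had 23.5, 22 and 20.8 CPM with siGlut1, against 20.6, 20.5 and 21.0 CPM with non-silencing siRNA in control glucose. For BACH1 in high glucose the values were 26.0, 25.2 and 24.4 CPM with siGlut1, against 20.3 and 18.6 CPM with non-silencing siRNA, with no overlap, while the control-glucose groups overlapped. The log2 fold change of BACH1 was 0.096 (adjusted p = 0.563) in control glucose and 0.37 (adjusted p = 0.0349) in high glucose. The high-glucose call of BACH1 ended with no filter on low counts (0.0529) and with the gene length trend removed (0.0683). BACH1 also lost it without siGlut1 control 1 or 2, non-silencing control 1 or any siGlut1 high library. Its averaged log2 fold change was 0.23 ± 0.06 SE (adjusted p = 0.0189), and the call ended without siGlut1 control 1 or non-silencing high 3 (0.20 to 0.21, adjusted p-values of 0.0548 and 0.0981).

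Of 12 regulators, 1 rose and 2 fell in the average of both media, against 7.93% and 6.49% of all genes. Their median was 0.0079, against -0.0045 over all genes. With DESeq2 4 rose and 3 fell, and with 1 library left out 0 to 2 rose and 0 to 3 fell. The share of all genes that DESeq2 called in this average is not given here. The small MAF protein MAFF (-0.19 ± 0.06 SE, adjusted p = 0.0422) and the related factor NFE2L3 (-0.23 ± 0.05 SE, adjusted p = 0.0114) fell. The MAFF call ended without 8 of the 11 libraries in turn, all but siGlut1 control 2, non-silencing control 3 and siGlut1 high 2 (adjusted p-values of 0.0694 to 0.132), and that of NFE2L3 without non-silencing high 1 (adjusted p = 0.0644). The other small MAF genes MAFG (0.18, adjusted p = 0.0540) and MAFK (0.11, adjusted p = 0.634) were not called, and neither was SQSTM1, which encodes the autophagy receptor that can sequester KEAP1 (-0.18, adjusted p = 0.0751). MAFG was called, higher, without non-silencing control 3 or siGlut1 high 1, with DESeq2 (its adjusted p = 0.0197), with at least 1 CPM in 6 libraries (0.0404) and with all 12 columns (0.0171). SQSTM1 was called, lower, without siGlut1 control 2 or non-silencing control 3 and without both control-glucose libraries numbered 3 (0.0483). It was also called with the replicate block (0.0171), DESeq2 (its adjusted p = 0.0444) and all 12 columns (0.0382).

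Further genes of the same biochemistry were counted over 6 lists with 98 genes, of which 92 were tested, with the regulators among them. Averaged over both media, 6 rose and 20 fell with siGlut1, with a median of -0.084 against -0.0045 over all genes. Within control glucose 1 rose and 4 fell, where 1.7% of all genes were called higher and 1.26% lower, and within high glucose 3 rose and 9 fell, where 2.46% were called higher and 1.65% lower. Leaving out non-silencing high 1 gave 2 higher and 9 lower in the average, leaving out non-silencing high 3 gave 2 and 12, and leaving out both control-glucose libraries numbered 3 gave 8 and 25. In control glucose the number that fell was 1 without siGlut1 control 1 or 2 or non-silencing control 1, 2 without siGlut1 control 3, non-silencing control 2, siGlut1 high 3 or non-silencing high 1 or 3, and 7 without non-silencing control 3. In high glucose it was 0 without non-silencing high 1 or 3, 1 to 3 without 1 of the siGlut1 high libraries, 6 without siGlut1 control 1, 14 without non-silencing control 3 and 21 without both control-glucose libraries numbered 3. The shares stand against 7.93% higher and 6.49% lower over all genes in the average, also for each list below. The counts over all genes moved with the same choices. In control glucose they were 131 without siGlut1 control 1 and 319 without non-silencing control 3, against 424. In high glucose they were 1674 without both control-glucose libraries numbered 3, against 589. They were far lower without non-silencing high 1 or 3, which leaves that group unreplicated. A change in the list counts is therefore not read as one of these genes alone. GPX2, UGT1A6, ALDH3A1, CES1, HAMP and SOD3 were too low to be tested, at no more than 0.275 CPM in any library.

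Of 24 tested glutathione and thioredoxin genes, 1 rose and 4 fell in the average, and without 1 library the number that fell was 0 to 5, with 0 without siGlut1 high 2 or 3 or non-silencing high 1 or 3. PRDX4, the peroxiredoxin of the endoplasmic reticulum, rose, with 121, 110 and 139 CPM with siGlut1, against 75.6, 78.7 and 80.6 CPM with non-silencing siRNA in control glucose. For PRDX4 in high glucose the values were 110, 131 and 113 CPM with siGlut1, against 82.9 and 74.5 CPM with non-silencing siRNA. No siGlut1 library of PRDX4 reached down to a non-silencing one, and the averaged log2 fold change was 0.62 ± 0.07 SE (adjusted p = 0.000529). GSR, which reduces glutathione (-0.19, adjusted p = 0.0360), the glutaredoxin GLRX (-0.19, adjusted p = 0.0456) and GGT5, a gamma-glutamyl hydrolase of the cell surface (-0.59, adjusted p = 0.0279), were among those that fell. Without both control-glucose libraries numbered 3 the GLRX call ended (adjusted p = 0.0528). It also ended with the replicate block (0.0739), no filter on low counts (0.07945) and the gene length trend removed (0.0840). With the block (0.05535) and with no filter (0.05755) the GSR call ended too. The GSR call ended without any 1 library except siGlut1 control 3 and non-silencing control 2 and 3 (adjusted p-values of 0.0599 to 0.129). The GLRX call ended without any except non-silencing control 1 and siGlut1 high 1 (0.0553 to 0.136), and the GGT5 call without any except siGlut1 control 2 and 3, non-silencing control 3 and siGlut1 high 1 (0.0541 to 0.0943).

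TKT, a transketolase of the pentose phosphate pathway, was on a list of 8 tested genes around NADPH, the reductant of NQO1 and of TXNRD1. TKT fell by 0.29 ± 0.06 SE on the log2 scale in the average (adjusted p = 0.00865). It was not called in control glucose (-0.19, adjusted p = 0.227), where the groups overlapped, but was in high glucose (-0.38, adjusted p = 0.0351). That high-glucose call ended without siGlut1 control 1 or 2, non-silencing control 1 or any siGlut1 high library. The list as a whole is not described here, and TKT does not stand for it.

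Of 24 tested detoxification genes ascribed to NRF2, 2 rose and 7 fell in the average, against 7.93% and 6.49% of all genes. Their median was -0.17, and the number that rose was near the share of all genes. Without non-silencing high 1 these counts were 0 and 4, without non-silencing high 3 they were 1 and 5, and without siGlut1 control 1 they were 1 and 6. TRIM16 and the related gene TRIM16L, which may share reads, fell with averaged log2 fold changes of -0.44 ± 0.07 SE (adjusted p = 0.00183) and -0.81 ± 0.13 SE (adjusted p = 0.00227). The carbonyl reductase CBR3 gave -0.46 ± 0.09 SE (adjusted p = 0.00658). The export pump ABCC3 gave -1.29 ± 0.21 SE (adjusted p = 0.00287) at a low level, 1.22, 1.58 and 1.30 CPM with siGlut1, against 3.51, 4.05 and 1.66 CPM with non-silencing siRNA in control glucose. PTGR1, a reductase of prostaglandins and alkenals, gave -0.44 ± 0.11 SE (adjusted p = 0.0177), and its call ended without non-silencing high 1 (-0.38, adjusted p = 0.0917). The 2 that rose were the export pumps ABCC1 (0.29) and ABCC5 (0.27), which were named after their values were seen.

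Of 16 tested heme and iron genes outside the set, 1 rose and 4 fell in the average, against 0 and 2 without non-silencing high 1, 0 and 3 without non-silencing high 3, and 0 and 4 without siGlut1 high 2 or 3. ACO1, the cytosolic aconitase that without its iron-sulfur cluster binds ferritin messenger RNA, had 110, 98.0 and 94.1 CPM with siGlut1, against 150, 142 and 126 CPM with non-silencing siRNA in control glucose. For ACO1 in high glucose the values were 122, 122 and 118 CPM with siGlut1, against 161 and 156 CPM with non-silencing siRNA, so the groups did not overlap (averaged log2 fold change -0.43 ± 0.06 SE, adjusted p = 0.00117). FECH, which inserts iron into protoporphyrin to make heme, fell by 0.29 ± 0.05 SE on the log2 scale (adjusted p = 0.00520). The ferric reductase CYBRD1 gave -0.29 ± 0.06 SE (adjusted p = 0.0114), and its call ended without non-silencing high 1 (-0.25, adjusted p = 0.0662). HMOX2, the constitutive heme oxygenase, gave 0.23 ± 0.06 SE (adjusted p = 0.0214), and its call ended without siGlut1 high 2 or 3 or non-silencing high 1 or 3 (0.21 to 0.23, adjusted p-values of 0.0543 to 0.0893).

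Among 8 tested antioxidant enzymes outside these lists, catalase fell. CAT had 33.4, 36.0 and 36.6 CPM with siGlut1, against 45.4, 50.1 and 51.6 CPM with non-silencing siRNA in control glucose, and 34.9, 30.9 and 34.8 CPM with siGlut1, against 49.4 and 49.1 CPM with non-silencing siRNA in high glucose. All siGlut1 libraries lay below all non-silencing ones, and the averaged log2 fold change was -0.51 ± 0.06 SE (adjusted p = 0.000434). PON2, a lactonase, rose (0.20 ± 0.05 SE, adjusted p = 0.0243), a call that ended without siGlut1 control 1 or 2, non-silencing control 1 or non-silencing high 1 or 3 (adjusted p-values of 0.0524 to 0.119). The averaged calls of PRDX4, TKT, TRIM16, TRIM16L, CBR3, ABCC3, ACO1, FECH and CAT held in all 20 alternatives. Between high and control glucose, edgeR called 0 of the 92 genes of the 6 lists with non-silencing siRNA, with siGlut1 and in the average, where 6, 16 and 20 had an unadjusted p under 0.05, against 5.4%, 15.2% and 16.9% of all genes. DESeq2 called 0, 1 and 6 of them, against 0.23%, 3.01% and 3.77% of all genes. Without both control-glucose libraries numbered 3 edgeR called 0, 10 and 23, against 0.337%, 5.16% and 18.1% of all genes.

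**Figure D4:**
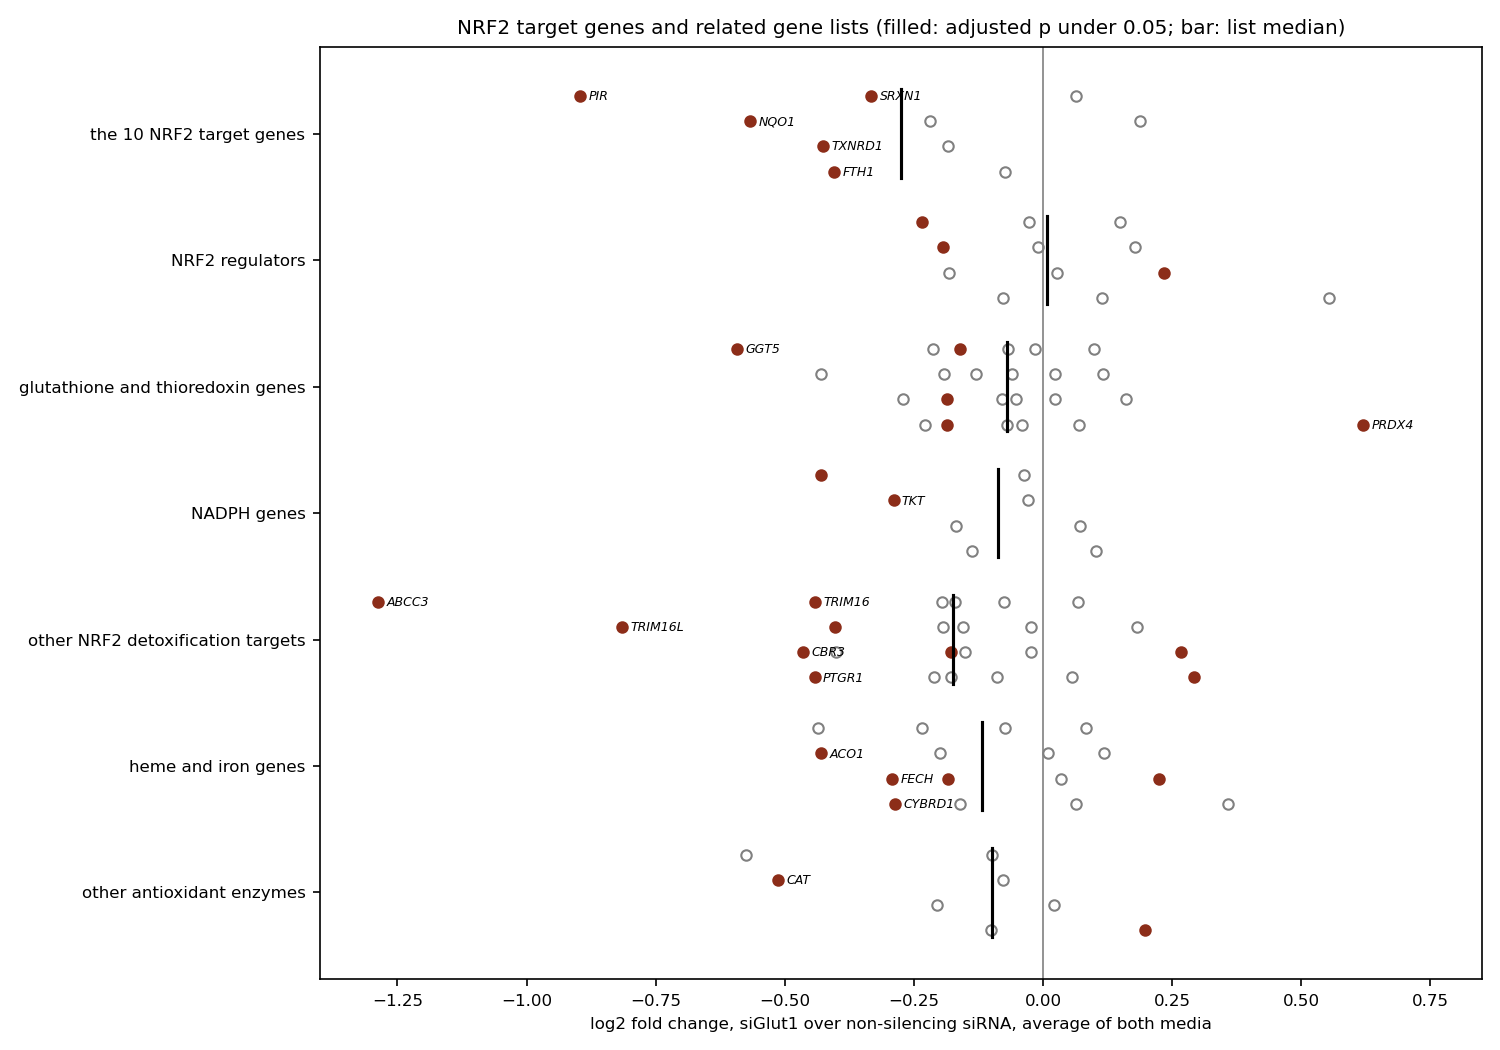
Log2 fold changes of siGlut1 over non-silencing siRNA, averaged over both media (horizontal axis), for the 10 NRF2 target genes and the tested genes of the 6 other lists (rows, with the vertical position within a row set only to separate points). Filled points passed an adjusted p of 0.05 over all genes tested, labelled ones are described in the text, and black bars are list medians, at -0.28 for the 10 genes and between -0.17 and 0.0079 for the other lists.

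Across the 11 libraries the 10 genes fell into differing patterns, given here as Pearson correlations of log2 CPM with no test, since the libraries share groups and scaling. NQO1 and PIR were the most alike pair (r = 0.947), followed by NQO1 and TXNRD1 (0.889) and TXNRD1 and SRXN1 (0.882). GCLM and SLC7A11 went together (0.831), and GCLC and FTH1 went in opposite directions (-0.849). NQO1 correlated with GCLM at 0.345, with SLC7A11 at 0.0977 and with FTL at -0.228. Among 9175 genes with a mean of at least 10 CPM, the 5 most like NQO1 were SLC50A1 (0.984), PRUNE2 (0.982), C10orf46 (0.980), BZW2 (0.980) and ATP6V1E1 (0.974), with PIR at rank 25. The 5 most like HMOX1 were C17orf58 (0.926), SRP14 (0.919), EDEM2 (0.902), NFKBIZ (0.881) and CYB5A (0.876), with PIR at rank 7 and NQO1 at rank 323.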

How the data were processed

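RNA was sequenced from 12 samples, and the 11 libraries with values of their own were used. Per the file headers, the table gives a raw read count for each entry and sample, and its values are whole numbers. It also gives RPKM, for which the authors divided by a length and by a total that is 1.05 to 1.07 times the column's count sum. Build hg19 and DESeq2 come from the submitters' processing notes, and the strandedness, aligner and counter were not given in the sources used here. Per the labels' protocols, RNA was isolated with RNeasy columns, and 2 library kits are named without saying which library each made. The gene length column was used as deposited. All counts of the 11 libraries were even. Columns that match no sample numbered 0.

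Of 23398 entries, 101 entries of 49 symbols on several rows were set aside. edgeR 4.0.16 (R 4.3.3) was used with filterByExpr, which kept 14334 genes, and TMM factors of 0.975 to 1.03. The model had the 4 groups, no replicate block and 7 residual degrees of freedom. Tests were two-sided and adjusted by Benjamini-Hochberg within a comparison, with 0.05 as the threshold. The script was tested on simulated data. CPM used TMM-scaled totals, with a prior count of 2 on the log2 scale. A standard error (SE) is the absolute log2 fold change divided by the root of its F statistic, and 95% intervals follow from it. RPKM was used for levels between genes and for markers.

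The 10 genes, the lists and the tests were chosen with earlier results of these data known. Named were all 10, SLC2A1, NFE2L2, KEAP1, BACH1, MAFF, MAFG, MAFK and SQSTM1, other regulators past the threshold, up to 4 members per list past the threshold by size of change, and the 5 genes most like NQO1 and HMOX1. A gene that the rule names is not reported here. Same-numbered libraries were compared by the correlation of their deviations from the group means. It was 0.295, 0.666 and 0.757 between both control-glucose groups, a hint of pairing from the data and not from the labels. Number 1 was unclear, since siGlut1 control 1 was more like non-silencing control 2 (0.356) than non-silencing control 1. In high glucose only 2 pairs exist (0.460 and 0.417). Between glucose levels it was 0.539, -0.563 and 0.0466 with siGlut1 and -0.265 and 0.0027 with non-silencing siRNA, which is no pairing. Libraries of unlike number reached 0.589 there (siGlut1 control 3 and siGlut1 high 2). Alternatives were the replicate block, DESeq2 1.42.0, its size factors in edgeR, no filter, at least 1 CPM in 6 libraries, only the 2 groups compared, all 12 columns, both control-glucose libraries numbered 3 left out, a removed gene length trend and each library left out. The 12 columns include the left-out replicate 2, a mean of replicates 1 and 3, so calls gained there have no added library behind them. Halved counts and the block within the 2 control-glucose groups were added after seeing the data.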

Additional observations from a re-analysis of the deposited data

How the results depend on the processing

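The number of the 10 genes called with siGlut1 was 4 in control glucose, 1 with only the 2 groups compared, 8 with the replicate block and only those 2 groups, and 2 to 4 with 1 library left out. It was 4 in high glucose (1 to 5 with 1 library left out; lowest without non-silencing high 3) and 5 in the average (4 to 7). The replicate block over all 4 groups gave 4, 5 and 6, adding FTH1 in high glucose and HMOX1 in the average, and ended no call of the 10 genes. Between glucose levels the 0 with siGlut1 became 2 with DESeq2 (3.01% of all genes) and 3 without both control-glucose libraries numbered 3 (5.16%). The 0 in the average became 1 with DESeq2 (3.77% of all genes) and 6 without both libraries numbered 3 (18.1%). It became 1 with 12 columns and 0 to 2 with 1 library left out, for which no share of all genes is given here. The cause of these changes was not tested.

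Of 1250 recomputed siRNA and glucose fold changes of the 10 genes, 28 turned sign, 36 lost and 35 gained a call, and each that turned was of a value not called. Removing the length trend gave log2 fold changes of 0.069 for FTL and -0.036 for SLC7A11 (siGlut1 in high glucose), and for HMOX1 0.038 (high glucose with siGlut1) and 0.021 (averaged). The block gave 0.0065 for FTH1 and -0.016 for SLC7A11 (high glucose with non-silencing siRNA) and 0.0027 for HMOX1 (averaged). Without both libraries numbered 3, HMOX1 gave -0.039 (non-silencing) and PIR -0.068 (averaged). With 1 library left out, FTL ranged from -0.065 to 0.0093 with siGlut1 in high glucose. Between glucose levels with non-silencing siRNA, HMOX1 ranged from -0.044 to 0.10, FTH1 from -0.21 to 0.090 and SLC7A11 from -0.088 to 0.14. With siGlut1, PIR ranged from -0.20 to 0.036 and HMOX1 from -0.11 to 0.032, and in the average PIR from -0.037 to 0.083 and HMOX1 from -0.057 to 0.033.

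The count of all genes called in control glucose was 424, against 1050 with DESeq2, 824 with 12 columns, 70 with only the 2 groups, 247 without both libraries numbered 3, and 131 to 343 with 1 library left out. In high glucose it was 589, against 1318 with DESeq2, 1807 with 12 columns, 1149 with only the 2 groups, 1674 without both libraries numbered 3, and 6 to 1077 with 1 library left out, lowest without non-silencing high 3 (6) and 1 (32). In the average it was 2066, against 3182 with 12 columns and 1000 to 2497 with 1 library left out. Limits were the 2 libraries of non-silencing siRNA in high glucose, the even counts, behind which there may be fewer independent reads, and the unknown use of strand for overlapping entries.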

Other observations

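Ratios within a library, chosen after their values were seen and given with no test, set the subunits of one complex against each other. The RPKM of FTL over that of FTH1 was 2.02, 1.88 and 2.35 with siGlut1, against 1.51, 1.19 and 1.97 with non-silencing siRNA in control glucose. The high-glucose ratios were 1.88, 2.21 and 2.15 with siGlut1, against 1.38 and 1.60 with non-silencing siRNA. The groups overlapped in control glucose, through replicate 3 of the non-silencing group, and did not in high glucose. The RPKM of GCLC over that of GCLM was 0.529, 0.553 and 0.421 with siGlut1, against 0.377, 0.401 and 0.362 with non-silencing siRNA in control glucose. The high-glucose ratios were 0.469, 0.392 and 0.495 with siGlut1, against 0.364 and 0.337 with non-silencing siRNA. Neither medium had an overlap in this ratio of the catalytic to the modifier subunit of glutamate-cysteine ligase, although GCLM alone overlapped in both. A ratio shows unequal levels and not which gene moved.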
